A study of Mus musculus with 6 samples.

Results

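The folding, translocation, quality control and stress sensing genes of the endoplasmic reticulum (ER) were followed in CCR6+ group 3 innate lymphoid cells (ILC3s), innate lymphocytes of the gut that secrete IL-17 family cytokines. A list of 55 genes was taken, and 54 of them were measured, each by the probe set with the highest mean, out of 19938 genes tested. The probe set of Sec61g carries several gene symbols in the annotation, so this gene was not analysed here. The cells were sorted from small intestine lamina propria of adult C57BL/6 mice and profiled on 1 microarray per sample. The RorccreTnfsf11fl/fl group (3 arrays, here called RANKL-deficient, after the series title) carried floxed Tnfsf11 alleles together with Cre. The Tnfsf11fl/fl group (3 arrays, here called floxed controls) carried the floxed alleles without a Cre named in its labels, so Cre itself and the deletion cannot be told apart. Tnfsf11 encodes the cytokine RANKL, and the comparison asks which transcripts differ when ILC3s lack it. Whether each sample came from its own mouse is not stated in the labels, so p-values here reflect array-to-array spread that may be purely technical.

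The ER folds secreted and membrane proteins. Chaperones of the HSP70 and HSP90 families, lectin chaperones and disulfide isomerases hold and shape the new chains, the translocon brings them in, and ER-associated degradation returns failed ones to the cytosol. When folding falls behind, the unfolded protein response starts from membrane sensors: IRE1 (Ern1), which splices the Xbp1 transcript, PERK (Eif2ak3), which slows translation and raises ATF4 and CHOP (Ddit3), and ATF6, which is cleaved into a transcription factor. Both ATF6 and spliced XBP1 act through short promoter elements shared by many ER chaperone genes. An array probe set reads total transcript, so neither the splicing of Xbp1 nor the activity of a sensor protein was measured.

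The best known of these promoter elements, the ER stress response element (ERSE), was looked for in RefSeq promoter windows of build GRCm38.p6 that run from 250 bases before to 50 bases after a transcript start. A window was matched for 46 of the 55 genes, and Atf6, Hspa13, Hyou1, Manf, Mzb1, Derl1, Sec61a1, Ssr2 and Sec11c had none. Read on both strands, its letters, CCAAT and CCACG with 9 free bases between them, stood in the promoters of 10 of these 46 genes (21.7%), against 0.137% of all 27025 genes with a window. The 10 were Hspa5, Hsp90b1, Dnajc3, Creld2, Calr, Canx, Pdia6, Ero1b, Syvn1 and Derl3. The related element ERSE-II, ATTGG and CCACG with 1 free base between them, stood in those of Dnajb11 and Herpud1, against 0.0444% of all genes. These stretches are shown because they stood in a larger share of these promoters than of all promoters. Such elements are known from ER chaperone genes, which this list holds, so the larger share is not an independent result. Each is written on the strand of its gene, with the fixed letters of the element in capitals, and an element on the opposite strand appears reversed, from CGTGG to ATTGG.
Hspa5 (chr2:34772013-34772055, plus strand): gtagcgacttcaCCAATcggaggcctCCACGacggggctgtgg
Hsp90b1, upstream copy (chr10:86705626-86705668, minus strand): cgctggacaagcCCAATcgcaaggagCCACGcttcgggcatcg
Hsp90b1, downstream copy (chr10:86705521-86705563, minus strand): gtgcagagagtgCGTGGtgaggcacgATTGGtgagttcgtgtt
Dnajc3 (chr14:118937815-118937857, plus strand): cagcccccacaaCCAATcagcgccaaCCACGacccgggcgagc
Calr (chr8:84847063-84847105, minus strand): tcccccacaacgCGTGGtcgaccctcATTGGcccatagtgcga
Pdia6 (chr12:17266479-17266521, plus strand): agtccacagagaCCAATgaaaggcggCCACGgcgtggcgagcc
Creld2 (chr15:88819508-88819550, plus strand): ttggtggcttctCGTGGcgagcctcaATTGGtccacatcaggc
Herpud1, ERSE-II (chr8:94386365-94386399, plus strand): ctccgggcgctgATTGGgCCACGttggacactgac
A match is a description of the letters and not evidence of binding.

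The member with the smallest p, Sdf2l1, held neither element, but its 250 bases before the start carried the separate parts CCAAT and CCACG 3 times each, counted on both strands. At least 3 of each stood in 0.0609% of the 32851 windows cut to the same 250 bases, and at least 1 of each in 9.26%. The cutoff of 3 equals the Sdf2l1 count, and the gene was picked by its p. The share therefore describes this stretch and tests nothing. Its paralog Sdf2 had neither CCAAT nor CCACG in the same stretch, with a log2 difference between the groups of similar size (1.05, beside 0.98 for Sdf2l1). The part of these letters in the differences was not tested. The Sdf2l1 sequence is shown for the contrast in letters, with the parts in capitals.
Sdf2l1 (chr16:17132384-17132633, minus strand): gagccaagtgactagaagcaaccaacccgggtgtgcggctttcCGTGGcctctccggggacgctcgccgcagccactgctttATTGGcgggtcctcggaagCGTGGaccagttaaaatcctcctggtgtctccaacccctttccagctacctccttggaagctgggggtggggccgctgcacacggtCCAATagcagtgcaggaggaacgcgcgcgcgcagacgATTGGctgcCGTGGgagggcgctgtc

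The arrays were alike in their medians (5.07 to 5.15 on the log2 scale), but floxed control arrays 1 and 2 stood apart from the other 4, with narrower spreads over genes (SD 1.86 and 1.93, against 1.99 to 2.01) and the lowest mean correlations across genes with the other arrays (0.960 and 0.970, against 0.975 to 0.977). By limma's array weights, floxed control arrays 1 and 3 were the low ones (0.449 and 0.604), and floxed control array 2 had 1.43, against 1.32 to 1.47 for the RANKL-deficient arrays. Group counts, and the values of many of the named genes, are given with and without floxed control arrays 1 and 2, the group counts as an alternative added after the data were seen. The targeted gene Tnfsf11 measured 8.51 ± 0.15 on RANKL-deficient and 8.47 ± 0.26 on floxed control arrays (SD, n = 3 each), but the position of its probe set relative to the floxed exons is not given in the sources used here, so this does not check the labels. All 11 measured ILC3 markers of 13 listed, among them Il7r, Id2, Kit, Il23r and Ccr6, had means above the median gene (5.12). They summed to 109.25 to 111.26 on RANKL-deficient and 107.64 to 109.4 on floxed control arrays, with a median difference of 0.13. Of the 11, 7 were higher and 4 lower. Cxcr5 (0.85) and Lta (0.36) lay above all controls on every RANKL-deficient array, and 0 lay below. Among markers of B and plasma cells, which carry a large ER, 4 of 12 had means above the median gene, including Jchain at 8.08 ± 0.29 on RANKL-deficient and 7.92 ± 0.15 on floxed control arrays (SD, n = 3 each). The summed log2 level of these 12 markers was 58.1 to 59.1 on RANKL-deficient and 58.7 to 60.4 on floxed control arrays. Of the 14 measured markers of goblet and other epithelial cells 7 lay above the median gene, and they summed to 70.7 to 83.1 on RANKL-deficient and 70.3 to 79.4 on floxed control arrays. Among them Agr2, a goblet cell disulfide isomerase, measured 9.99, 7.48 and 10.62 on RANKL-deficient arrays and 4.09, 8.93 and 9.06 on floxed control arrays, lowest on floxed control array 1. The 14 epithelial markers as a list went the other way, with a median difference of −0.16 and 4 higher, where 39.5% of all genes were higher. Markers of T cells summed to 44.69 to 46.97 on RANKL-deficient and 45.35 to 49.97 on floxed control arrays, and those of myeloid cells to 39.88 to 45.09 on RANKL-deficient and 45.01 to 45.14 on floxed control arrays. The T cell marker Cd3g was below all controls on every RANKL-deficient array (difference −1.91, limma adjusted p = 0.408), and Cd3e differed by −0.70. Cd3d differed by 0.26, and Trat1, at a low level (means 2.55 and 2.27), lay above all controls by a difference of 0.28. The 10 T cell markers had a median of −0.0071, with 3 higher. The macrophage marker Adgre1 differed by −0.54, and the 9 myeloid markers had a median of −0.31, with 3 higher. The part of these cells in the results was not tested. In such bulk samples, a change in the share of a cell type and a change of RNA per cell cannot be told apart.

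Most ER genes had somewhat higher values on RANKL-deficient arrays, and the stress sensor kinases Ern1 and Eif2ak3 had lower ones, but no member passed the test over all genes. The count of higher members depended on floxed control arrays 1 and 2. Without them, 28 of 54 were higher, against 50.1% of all genes, with a median of 0.031. Against all 3 floxed control arrays, 41 of the 54 members had a higher mean on RANKL-deficient arrays, against 39.5% of all genes. The median log2 difference of the members was 0.20, beside −0.054 over all genes. In limma with Benjamini-Hochberg adjustment over all genes, 0 members passed an adjusted p of 0.05, where 0.00502% of all genes (1 gene) did. The lowest adjusted p among members was 0.245, for Sdf2l1. At an unadjusted p under 0.05 there were 9 members, against 8.15% of all genes. Of these, 8 were higher, against 4.25% of all genes, and 1 was lower, against 3.9%. All 3 RANKL-deficient arrays lay above all 3 floxed control arrays for 11 members, against 5.28% of all genes, and below them for 3, against 9.08%.

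The ER genes are strongly expressed, and 46 of the 54 lay in the top 25% of genes by mean level, where higher values were more common in general. The 46 members had a median of 0.21, with 36 higher, and the genes of this range a median of 0.080, with 61% higher. At an unadjusted p under 0.05, 6 of the 46 were higher, against 9.83% of these genes, and 1 was lower, against 3.73%. For 9 of the 46 all RANKL-deficient arrays lay above all floxed control arrays, against 12% of these genes, and for 2 below them, against 5.44%. This background was added after the data were seen. After quantile normalization of the gene values, the median of this range was −0.0075. That of all 54 members, which are not all in this range, was then 0.12, with 35 higher, beside −0.016 over all genes. The members' shares of 13.0% (higher at that p) and 19.6% (above without overlap) stood closer to those of the other genes of similar level than to those of all genes, and what sets the remaining distance was not tested.

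**Figure D1:**
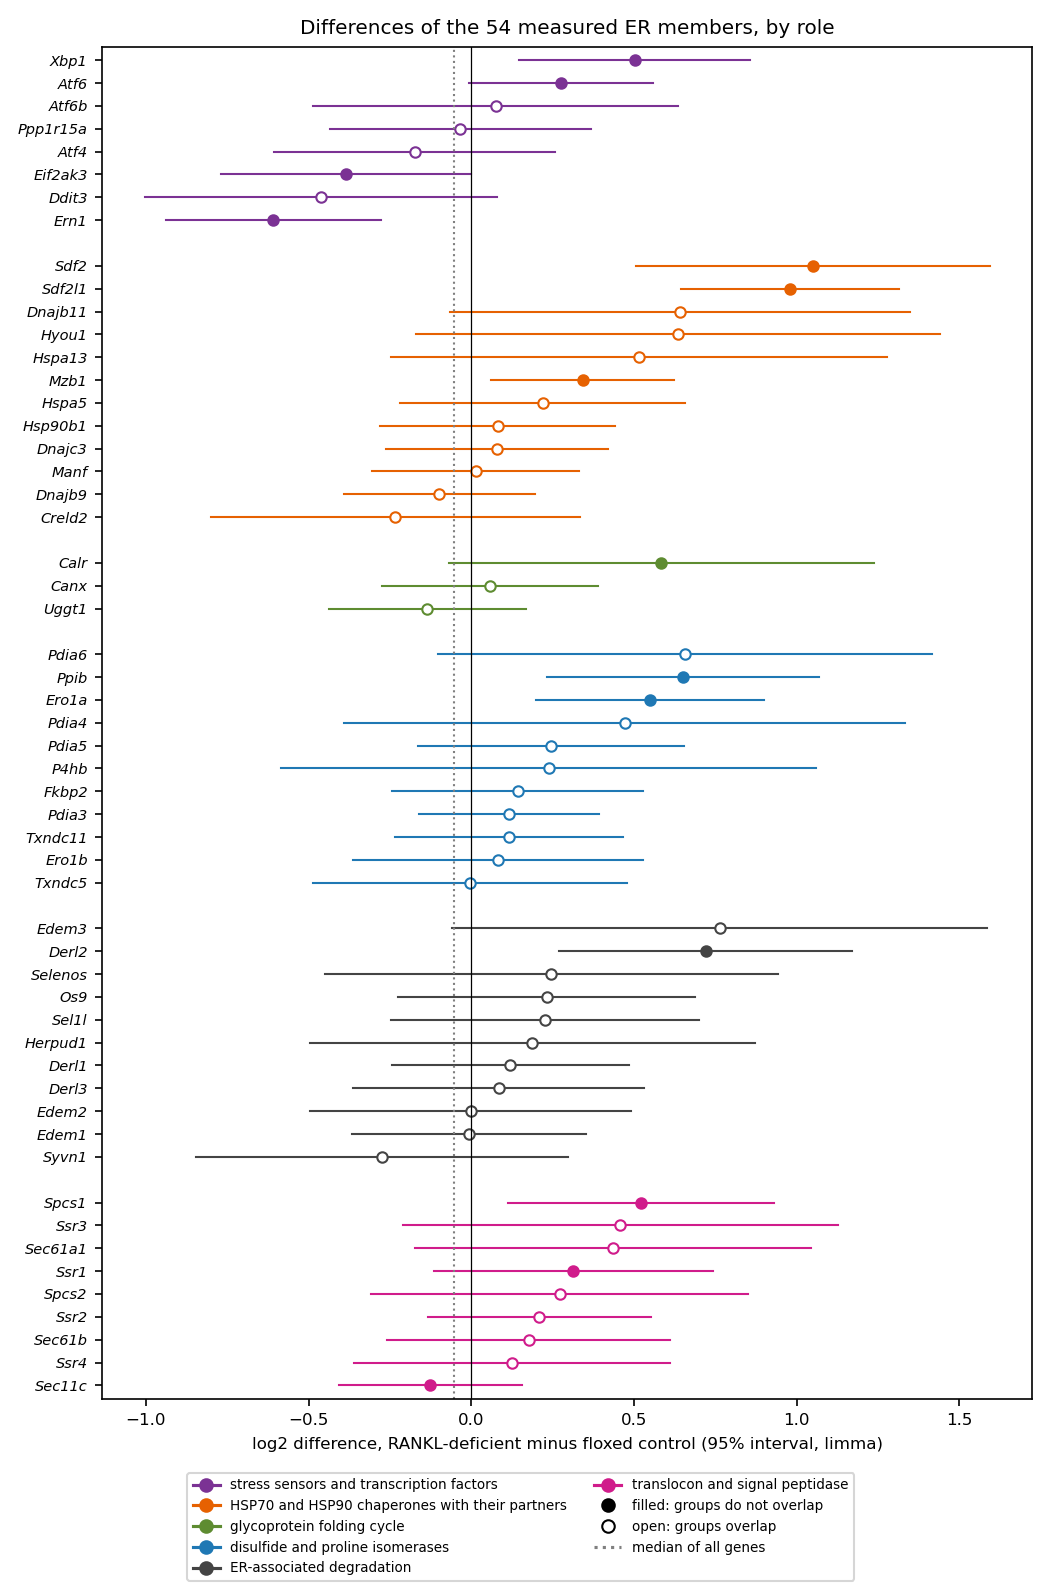
Log2 difference of each of the 54 measured ER genes, RANKL-deficient minus floxed control (x axis), with the 95% interval from limma, in 6 role groups. Filled points mark members whose groups do not overlap on 3 against 3 arrays, and the dotted line is the median of all genes (−0.054). Points run from −0.61 for Ern1 to 1.05 for Sdf2, and most chaperones, isomerases and translocon genes lie right of 0.

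Among the sensors and their transcription factors the differences ran both ways. Ern1 encodes IRE1, the kinase and RNase that splices Xbp1. It measured 9.34, 9.41 and 9.67 on RANKL-deficient arrays and 9.97, 10.18 and 10.10 on floxed control arrays. Every RANKL-deficient array lay below every control array, and the difference was −0.61 (SE 0.14, 95% interval −0.94 to −0.28, limma adjusted p = 0.421). Xbp1, which encodes the factor made after that splicing, lay the other way. It measured 7.08, 7.41 and 7.03 on RANKL-deficient arrays and 6.54, 6.75 and 6.73 on floxed control arrays, without overlap. Its difference was 0.50 (SE 0.15, 95% interval 0.15 to 0.86, limma adjusted p = 0.517).

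The other sensors showed the same division at smaller size. Eif2ak3, which encodes PERK, measured 6.05, 5.60 and 6.00 on RANKL-deficient arrays and 6.13, 6.36 and 6.32 on floxed control arrays. All RANKL-deficient values were the lower ones, by a gap of 0.073, and the difference was −0.38 (SE 0.16, limma adjusted p = 0.611). Atf6 measured 9.11, 8.94 and 9.02 on RANKL-deficient arrays and 8.70, 8.84 and 8.71 on floxed control arrays. All RANKL-deficient values were the higher ones, and the difference was 0.27 (SE 0.12, limma adjusted p = 0.614). Its relative Atf6b overlapped between groups, with a difference of 0.074.

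Factors downstream of PERK did not separate the groups. Ddit3, which encodes the pro-apoptotic factor CHOP, measured 6.24, 6.48 and 5.74 on RANKL-deficient arrays and 6.56, 6.91 and 6.38 on floxed control arrays, overlapping at RANKL-deficient array 2. Its difference was −0.46 (SE 0.23, limma adjusted p = 0.646). Atf4, the factor whose translation PERK raises, differed by −0.17 (SE 0.18, 95% interval −0.61 to 0.26), and Ppp1r15a, which encodes the phosphatase subunit GADD34 that ends the PERK signal, by −0.033. Of the 8 sensors and factors, 3 had a higher mean, with a median difference of −0.10. Higher means were found for 39.5% of all genes and 61% of the top 25% by level. Without floxed control arrays 1 and 2, 4 of the 8 were higher, with a median of 0.039. Ddit3 then differed by −0.22, Atf4 by 0.13 and Ppp1r15a by 0.091.

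**Figure D2:**
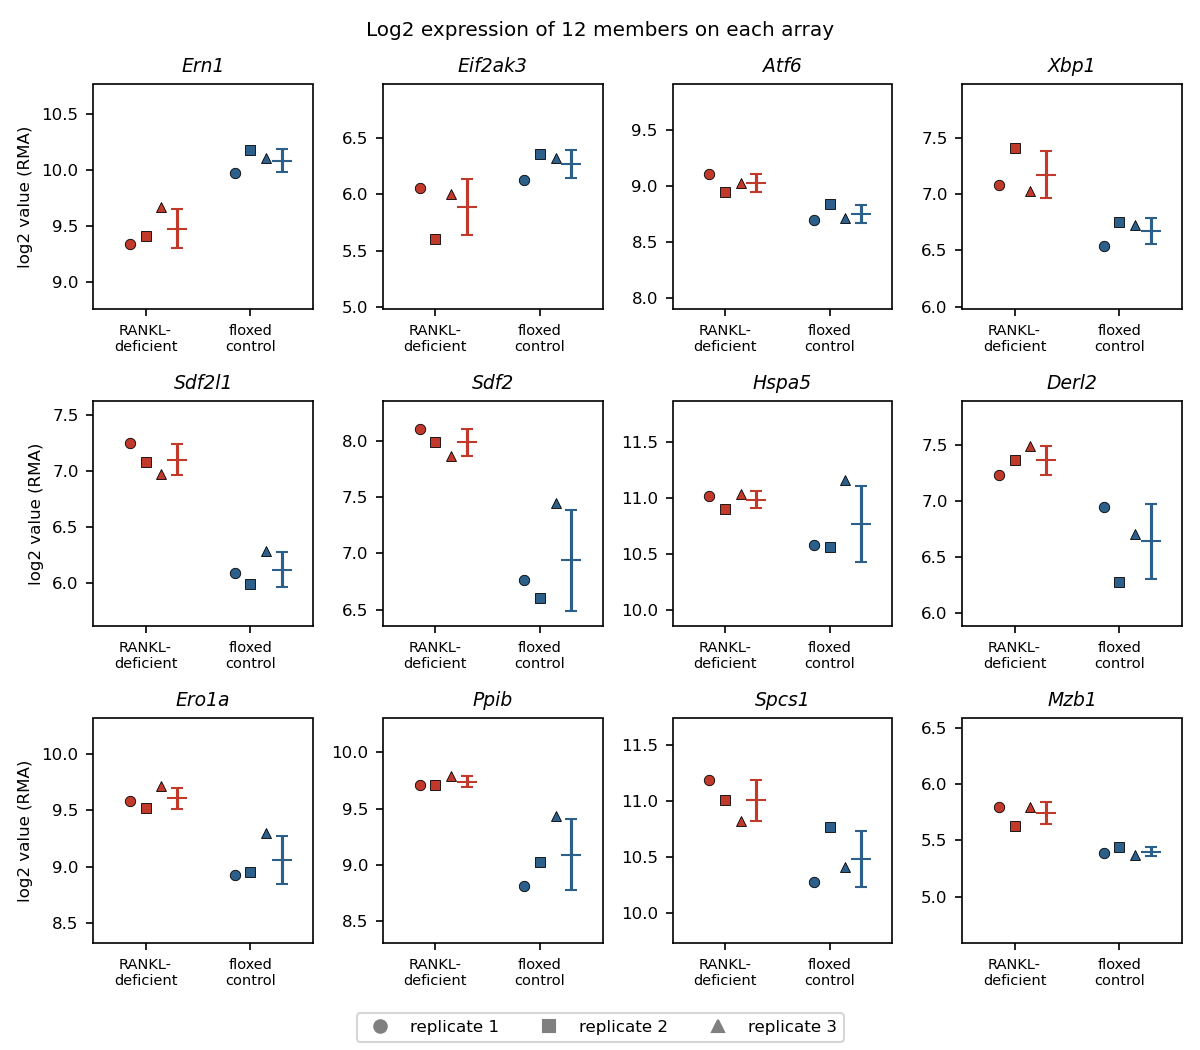
Log2 RMA value on each array (y axis, which spans 2 log2 units at a position of its own in each panel) for 12 members, with RANKL-deficient arrays left and floxed control arrays right. Symbols mark the replicate number, and horizontal bars with whiskers give the mean and SD of 3 arrays. Ern1 and Eif2ak3 lie lower and the others but Hspa5 higher on every RANKL-deficient array, while floxed control array 3 (triangle) lies highest of its group for Sdf2l1, Sdf2, Hspa5, Ero1a and Ppib.

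The clearest separation among the chaperones was in the paralogs Sdf2l1 and Sdf2. Their products sit in the ER lumen, where SDF2L1 works with the HSP40 cochaperone ERdj3 (Dnajb11) to keep BiP clients from aggregating. Sdf2l1 measured 7.25, 7.08 and 6.97 on RANKL-deficient arrays and 6.09, 5.99 and 6.29 on floxed control arrays. The groups were 0.68 apart at their nearest arrays, and the mean difference was 0.98 (SE 0.14, 95% interval 0.64 to 1.31, a 1.97-fold level, limma adjusted p = 0.245). It ranked 16 of 19938 genes by p. Permuting the arrays (exact, two-sided) gave p = 0.1, the smallest that 3 arrays against 3 allow. Sdf2 measured 8.10, 7.99 and 7.87 on RANKL-deficient arrays and 6.76, 6.60 and 7.45 on floxed control arrays. The groups did not overlap, but floxed control array 3 lay far above the other controls, and the difference was 1.05 (SE 0.23, 95% interval 0.51 to 1.59, limma adjusted p = 0.396). Against floxed control array 3 alone, it was 0.54, and that of Sdf2l1 was 0.81.

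The major chaperones of the lumen showed no such separation. Hspa5, which encodes BiP, the HSP70 of the ER, measured 11.01, 10.90 and 11.04 on RANKL-deficient arrays and 10.58, 10.56 and 11.15 on floxed control arrays. Floxed control array 3 lay above all others, and the difference of 0.22 (SE 0.19, 95% interval −0.22 to 0.66, limma adjusted p = 0.755) turned to −0.17 when the other controls were left out. Hsp90b1, the HSP90 of the ER (GRP94), differed by 0.080 (95% interval −0.28 to 0.44) and Dnajc3, the cochaperone p58IPK, by 0.078. Dnajb9, an ERdj4 cochaperone known as a target of spliced XBP1, differed by −0.098 (95% interval −0.39 to 0.20), and Manf, a secreted BiP partner, by 0.013. Creld2, a secreted ER stress marker, had the lowest difference of the chaperone group, −0.23 (SE 0.24, limma adjusted p = 0.796). It measured 7.13, 7.16 and 7.15 on RANKL-deficient arrays and 7.88, 6.90 and 7.36 on floxed control arrays, so its control values lay on both sides.

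Mzb1 also separated the groups. It encodes a GRP94 partner best known for antibody assembly in B lineage cells. It measured 5.80, 5.63 and 5.80 on RANKL-deficient arrays and 5.38, 5.44 and 5.37 on floxed control arrays. Its group means of 5.74 and 5.40 lay little above the median gene (5.12). The RANKL-deficient arrays were all higher, with a difference of 0.34 (SE 0.12, 95% interval 0.062 to 0.62, limma adjusted p = 0.579), and it was 0.37 without floxed control arrays 1 and 2. None of the 12 measured markers of B and plasma cells had an unadjusted p under 0.05, where 8.15% of all genes did. Of the 12, 8 were lower in RANKL-deficient cells and 4 higher, against 39.5% of all genes higher. The 4 were Tnfrsf17 (0.23), Jchain (0.16), Pou2af1 (0.15) and Prdm1 (0.024). The part of such cells in the Mzb1 difference was not tested.

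Of the 12 chaperones and partners, 10 had a higher mean, against 39.5% of all genes and 61% of the top 25% by level. Their median was 0.28. When floxed control arrays 1 and 2 were left out, 6 were higher, with a median of 1.5e-05. Other members with large differences, named here after their values were seen, had their lowest value on floxed control array 1. Hyou1, an HSP70-related exchange factor of BiP, measured 6.99, 7.14 and 7.47 on RANKL-deficient arrays and 5.80, 6.74 and 7.17 on floxed control arrays, a difference of 0.63 (limma adjusted p = 0.670). Dnajb11 differed by 0.64 and Hspa13, another HSP70 of the ER lumen, by 0.52. Without floxed control arrays 1 and 2, these differences were 0.030 for Hyou1, 0.12 for Dnajb11 and −0.030 for Hspa13.

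In the glycoprotein folding cycle, the lectin chaperone calreticulin and its membrane-bound relative calnexin bind chains whose glycan UGGT1 has marked. Calr measured 9.97, 9.86 and 9.83 on RANKL-deficient arrays and 8.65, 9.47 and 9.78 on floxed control arrays. The groups were separated by 0.049 between RANKL-deficient array 3 and floxed control array 3, and the difference of 0.58 (SE 0.28, limma adjusted p = 0.633) was 0.11 without floxed control arrays 1 and 2. Canx and Uggt1 overlapped between groups, with differences of 0.057 and −0.13. Against floxed control array 3 alone, 1 of these 3 genes was higher, with a median of −0.096.

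Among the isomerases, Ero1a and Ppib separated the groups. Ero1a (listed as Ero1l) encodes the oxidase that recharges protein disulfide isomerases. It measured 9.58, 9.52 and 9.71 on RANKL-deficient arrays and 8.92, 8.95 and 9.30 on floxed control arrays. Every RANKL-deficient array was higher, by a mean of 0.55 (SE 0.15, 95% interval 0.20 to 0.90, limma adjusted p = 0.457). Ppib, which encodes the ER proline isomerase cyclophilin B, measured 9.71, 9.71 and 9.79 on RANKL-deficient arrays and 8.81, 9.02 and 9.43 on floxed control arrays, again without overlap. Its difference was 0.65 (SE 0.18, 95% interval 0.23 to 1.07, limma adjusted p = 0.458). For both, floxed control array 3 was the control nearest to the RANKL-deficient arrays, and without the other controls the differences were 0.31 each.

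The disulfide isomerases themselves overlapped between groups. Pdia6, with the largest difference of the isomerase group (0.66, SE 0.32, limma adjusted p = 0.643), measured 8.32, 7.53 and 8.25 on RANKL-deficient arrays and 7.11, 7.01 and 8.0 on floxed control arrays. Its difference was 0.032 without floxed control arrays 1 and 2. Pdia4 differed by 0.47, Pdia5 by 0.24, P4hb by 0.24 and Pdia3 by 0.12, and none had an unadjusted p under 0.05. The second probe set of Pdia4 gave 0.10. Txndc5 had the lowest difference (−0.0038, 95% interval −0.49 to 0.48), while the ERO1 relative Ero1b (listed as Ero1lb), the thioredoxin-like Txndc11 and the proline isomerase Fkbp2 lay between 0.081 and 0.14. The group counted 10 of 11 members higher, against 39.5% of all genes and 61% of the top 25% by level. Its median was 0.24. When floxed control arrays 1 and 2 were left out, 8 were higher, with a median of 0.13, and P4hb differed by −0.28, Fkbp2 by −0.15, Pdia4 by 0.19 and Pdia5 by 0.049.

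In ER-associated degradation, Derl2 was the member that separated the groups. It encodes a derlin, a membrane protein of the channel through which substrates leave the ER. It measured 7.23, 7.36 and 7.49 on RANKL-deficient arrays and 6.94, 6.28 and 6.70 on floxed control arrays. All RANKL-deficient arrays were higher, and the difference was 0.72 (SE 0.19, 95% interval 0.27 to 1.17, a 1.65-fold level, limma adjusted p = 0.438), of which 0.66 was left without floxed control arrays 1 and 2. Its relatives overlapped between groups. Derl1 differed by 0.12 and Derl3, which secretory cells such as plasma cells express strongly, by 0.084. Derl3 was the 1 measured member with a mean below the median gene, at 4.88 ± 0.04 on RANKL-deficient and 4.80 ± 0.35 on floxed control arrays (SD, n = 3 each).

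Edem3, which encodes a mannosidase-like factor that marks glycoproteins for disposal, had the largest difference of the degradation group at 0.76 (SE 0.35, limma adjusted p = 0.618). It measured 8.04, 7.70 and 8.10 on RANKL-deficient arrays and 7.07, 6.52 and 7.97 on floxed control arrays. Floxed control array 3 lay among the RANKL-deficient arrays, and without the other controls the difference was −0.019. The paralogs Edem1 and Edem2 differed by −0.0062 and −0.0022. The ubiquitin ligase Syvn1 (HRD1) had the lowest difference, −0.28 (SE 0.24, limma adjusted p = 0.763), while its partner Sel1l differed by 0.23 and the substrate lectin Os9 by 0.23. Herpud1, a stress-induced part of that ligase complex, differed by 0.19 and Selenos (listed as Vimp), a membrane partner of the derlins, by 0.25. In all, 8 of the 11 degradation members had a higher mean, against 39.5% of all genes and 61% of the top 25% by level. Their median was 0.19. Without floxed control arrays 1 and 2 the direction turned, with 4 of 11 higher and a median of −0.079, and Selenos differed by −0.36, Sel1l by −0.20, Os9 by −0.17 and Herpud1 by −0.088. Edem2 then differed by −0.31, while Derl3, whose mean lay below the median gene, differed by 0.49.

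Where 39.5% of all genes and 61% of the top 25% by level were higher, 8 of the 9 measured translocon and signal peptidase genes were. Their median difference was 0.27. Against floxed control array 3 alone, 5 were higher, with a median of 0.066. Spcs1, a subunit of the signal peptidase that trims new chains, measured 11.19, 11.01 and 10.82 on RANKL-deficient arrays and 10.28, 10.77 and 10.41 on floxed control arrays. The groups were separated by 0.058, and the difference was 0.52 (SE 0.17, 95% interval 0.11 to 0.93, limma adjusted p = 0.563), with 0.60 left without floxed control arrays 1 and 2. Sec11c, a catalytic subunit of the same enzyme, lay in the other direction. It measured 10.94, 11.06 and 11.03 on RANKL-deficient arrays and 11.07, 11.11 and 11.24 on floxed control arrays, separated by 0.0071, and the difference was −0.13 (SE 0.12, limma adjusted p = 0.779). The channel subunit Sec61a1 differed by 0.44 and Sec61b by 0.18, with its other probe sets at 0.39 and −0.062. The translocon-associated proteins Ssr1, Ssr2, Ssr3 and Ssr4 ran from 0.13 to 0.46. Ssr1, at 0.31, had no overlap between groups, and Spcs2 differed by 0.27 with overlap. When floxed control arrays 1 and 2 were left out, Sec61a1 differed by 0.066, Ssr1 by 0.086, Ssr2 by −0.015, Ssr3 by −0.047, Ssr4 by 0.34 and Spcs2 by −0.28.

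**Figure D3:**
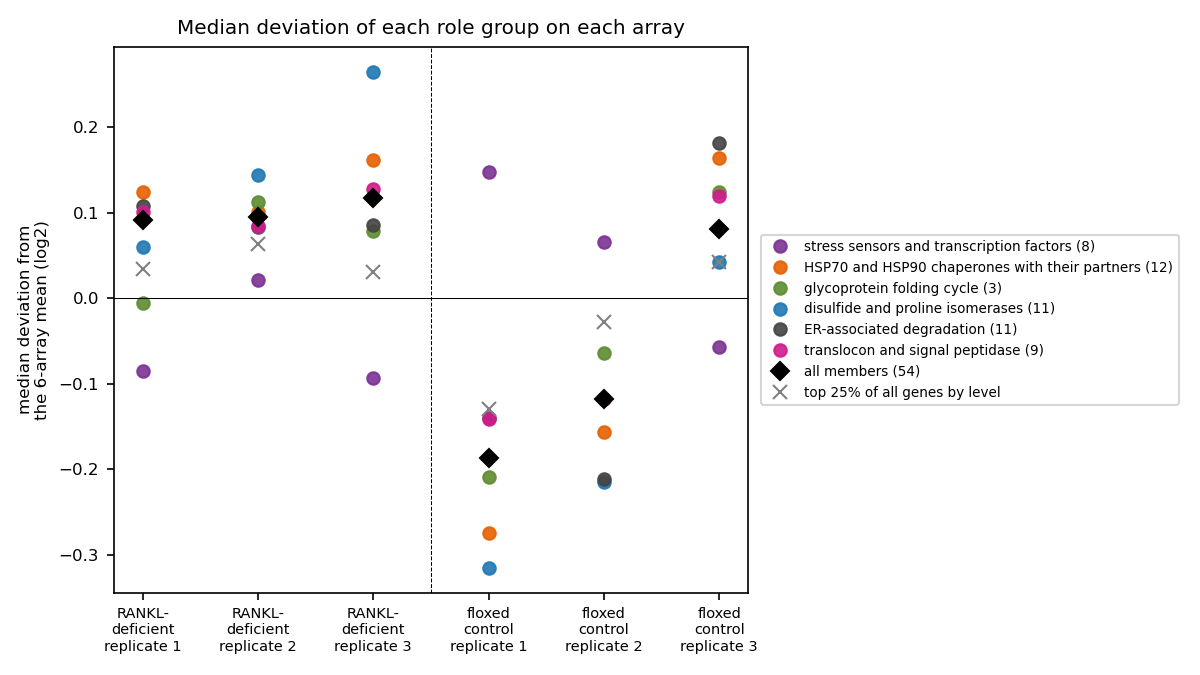
Median deviation of each role group from the 6-array mean of its genes (y axis, log2) on each of the 3 RANKL-deficient and 3 floxed control arrays (x axis). Diamonds give all 54 members, which lie at 0.091 to 0.12 on RANKL-deficient arrays, at −0.19 and −0.12 on floxed control arrays 1 and 2, and at 0.081 on floxed control array 3, and crosses give the top 25% of all genes by level.

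The shift of the list as a whole moved with single control arrays. The median deviation of the members from their 6-array means was 0.091, 0.095 and 0.12 on the RANKL-deficient arrays and −0.19, −0.12 and 0.081 on floxed control arrays 1, 2 and 3. Floxed control array 1 held the lowest value of 23 members (42.6%, against 36.6% of the top 25% of genes by level) and floxed control array 2 that of 16 (29.6%, against 22.1%). RANKL-deficient arrays held the lowest value of 2 to 4 members each (3.70% to 7.41%, against 8.30% to 12.1%), and floxed control array 3 that of 6 (11.1%, against 9.15%). Floxed control array 3 thus lay with the RANKL-deficient arrays for the chaperone, degradation and translocon groups. Leaving out floxed control arrays 1 and 2 together gave a median difference of 0.031 over the members with 28 of 54 higher, beside 0.00064 in the top 25% of genes by level and 50.1% of all genes higher. In that fit, with 1 control array assumed to vary like the others, 0 members passed the adjusted threshold and 6 had an unadjusted p under 0.05, against 6.29% of all genes.

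**Figure D4:**
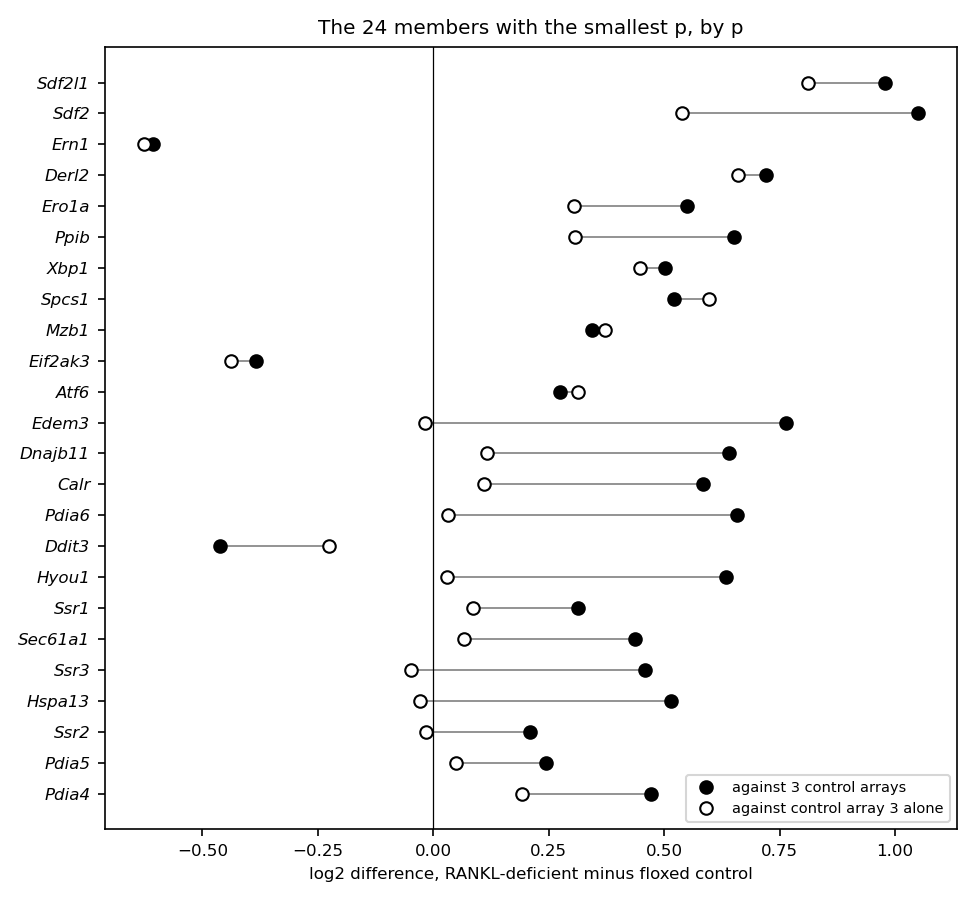
Log2 difference of the 24 members with the smallest p (y axis, in order of p) against all 3 floxed control arrays (filled) and against floxed control array 3 alone (open), RANKL-deficient minus floxed control. Sdf2l1, Ern1, Derl2, Xbp1, Spcs1, Mzb1, Eif2ak3 and Atf6 keep differences of a similar size, while those of Edem3, Pdia6, Hyou1, Ssr3 and Hspa13 lie within 0.05 of 0 against floxed control array 3.

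Single members therefore differed in how far they rested on those arrays. Against floxed control array 3 alone, the difference was −0.63 for Ern1, −0.44 for Eif2ak3, 0.45 for Xbp1 and 0.31 for Atf6, each close to its value with all controls. The 9 members with an unadjusted p under 0.05 kept their sign, with a median absolute difference of 0.54 beside 0.61 with all controls. Of the other 45, 24 kept their sign. Their median absolute difference was 0.13, beside 0.21 with all controls, and their signed median −0.019, beside 0.13. The 9 were picked by p on these same arrays, so this count describes them and tests nothing.

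The 12 members with the ERSE or ERSE-II letters had a median difference of 0.082, with 10 higher, against 39.5% of all genes. Without floxed control arrays 1 and 2, 6 were higher, with a median of −0.028. None had an unadjusted p under 0.05, against 8.15% of all genes, and 1, Calr, had all RANKL-deficient arrays above the controls, against 5.28%. Of the 10 largest absolute differences among members, 3 belonged to this set (Pdia6, Dnajb11 and Calr). The 33 measured members with a promoter window and neither element had a median of 0.23, and 8 of them had an unadjusted p under 0.05. The difference between these sets was not tested. The 11 other tested genes with ERSE letters had a median of −0.056, with 5 higher. The XBP1-binding letters TGACGTGG stood in the windows of Txndc5 and Txndc11 (0.714% of all genes), and the ATF4-type letters TGATGNAAT in those of 0 members (1.08% of all genes).

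No gene of the 5 related lists passed the adjusted threshold. For comparison with the counts of these 5 lists, 39.5% of all genes were higher, and 61% of the top 25% by level. Among 12 genes of oligosaccharyltransferase, the enzyme that attaches N-glycans at the translocon, 8 were higher, with a median of 0.18, and 2 were higher at an unadjusted p under 0.05, against 4.25% of all genes and 9.83% of the top 25% by level. Rpn1 measured 9.09, 9.04 and 9.28 on RANKL-deficient arrays and 8.07, 8.19 and 8.52 on floxed control arrays, a difference of 0.87 without overlap (SE 0.16, limma adjusted p = 0.306), and Ost4 differed by 0.63. Against floxed control array 3 alone, 7 were higher, with a median of 0.073, and Rpn1 differed by 0.62 and Ost4 by 0.20. Of 13 genes for the signal recognition particle and other translocation steps, 9 were higher, with a median of 0.18. The signal peptidase subunits Spcs3 and Sec11a differed by 0.71 and 0.50 (limma adjusted p = 0.582 and 0.603), the 2 of this list higher at an unadjusted p under 0.05. When floxed control arrays 1 and 2 were left out, 6 of 13 were higher, with a median of −0.037, and these differences were 0.46 and 0.14.

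Of 16 genes for COPII coats and ER to Golgi transport, 12 were higher, with a median of 0.22, and 0 had an unadjusted p under 0.05, against 8.15% of all genes. The coat subunits Sec24c and Sec13, which had the smallest p, differed by 0.26 and 0.50. Without floxed control arrays 1 and 2, 9 of the 16 were higher, with a median of 0.067, and these differences were 0.17 and 0.18. Of 14 other degradation genes, 11 were higher, with a median of 0.041. Of these 14, 1 was higher at an unadjusted p under 0.05, against 4.25% of all genes and 9.83% of the top 25% by level. Ngly1, the cytosolic deglycosylase, differed by 0.66 and Ube2g2, a ubiquitin-conjugating enzyme of the ER, by 0.50. Without floxed control array 1 these were 0.43 and 0.29. Against floxed control array 3 alone, Ngly1 differed by 0.21 and Ube2g2 by 0.49, and 6 of the 14 genes were higher, with a median of −0.013.

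Targets of the integrated stress response, the programme run by ATF4 and CHOP, had a median difference of 0.026 over 15 genes, with 9 higher. None was higher and 1 was lower at an unadjusted p under 0.05, against 4.25% and 3.9% of all genes. That gene, Cebpb, measured 7.45, 7.46 and 7.21 on RANKL-deficient arrays and 7.73, 7.82 and 7.60 on floxed control arrays, a difference of −0.34 without overlap (SE 0.13, limma adjusted p = 0.603). Nupr1, a stress-induced chromatin protein, differed by −0.68 (SE 0.29, limma adjusted p = 0.611) with overlap at floxed control array 1. When floxed control arrays 1 and 2 were left out, 9 of the 15 were higher, with a median of 0.013. Cebpb then differed by −0.22 and Nupr1 by −0.79.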

How the data were processed

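Biotinylated cDNA was made from 2 ng of total RNA per sample and read on Affymetrix arrays. The deposited log2 values of 35556 probe sets were made by the authors with RMA (Affymetrix Expression Console is named as the program, per the submitters' processing notes). The program's version is not given in the sources used here. RMA is made to equalize the arrays' distributions, so a shift of all genes would not be seen. The values of the genes tested still differed in spread between arrays (SD 1.86 to 2.01). The number of arrays limits the precision.

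Probe sets with 1 symbol (21789) were named through the platform annotation and a RefSeq gene table of GRCm38.p6, and the highest-mean probe set per gene was kept, without a filter on low values. The 6 arrays entered limma (version 3.58.1, R 4.3.3) as lmFit and eBayes, two-sided, with Benjamini-Hochberg adjustment over 19938 genes and a threshold of 0.05. The procedure was tested on simulated data with 200 changed genes. At the adjusted threshold it recovered 38% of those changed by 1 log2 unit and 87.5% of those changed by 2. Members that differ by 1 log2 unit or less could thus be missed. Exact permutation tests used scipy 1.17.1.

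The members, lists and rules were chosen with earlier results of these data known. The genes named are the 12 members with the smallest p, the sensors Ern1, Eif2ak3 and Atf6, the factors Xbp1, Atf4 and Ddit3, Hspa5, Sdf2l1, Sdf2, Mzb1, Derl3, the lowest and highest difference in each role group, and the 2 genes with the smallest p of each related list. Other members are named to account for the list. Alternatives covered normalization, low values, array weights, eBayes options, the choice of probe set, a replicate block and left-out arrays. Of the markers of T cells (10 genes) and myeloid cells (9 genes), 3 each were higher and 0 passed the adjusted threshold.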

Additional observations from a re-analysis of the deposited data

How the results depend on the processing

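Under 14 other settings 0 members passed limma's adjusted threshold, and the lowest adjusted p of a member was 0.110 (Sdf2, without floxed control array 3). The median difference of the members was 0.12 after quantile normalization and 0.25 after median centring, 0.13 to 0.30 when single arrays were left out, and 0.031 without floxed control arrays 1 and 2, which earlier results of these data had shown apart. Members at an unadjusted p under 0.05 numbered 15 with array weights and 8 to 20 when single arrays were left out, the highest without floxed control array 3. The share over all genes moved with them, to 11.0% with array weights and 14.1% without floxed control array 3, against 8.15%. With the replicate number as a block there were 13 (11 higher, lowest adjusted p 0.458), but deviations of same-numbered arrays correlated at −0.023, 0.050 and 0.027, so the numbers were not taken to pair the samples. Of 33 named genes, 26 kept their direction in all settings. Txndc5 turned to 0.047 with median centring, 0.094 with array weights and 0.13 without floxed control arrays 1 and 2, and ran from −0.11 to 0.17 over single left-out arrays. Over these, Creld2 ran from −0.47 to 0.019 (without floxed control array 1) and Derl3 from −0.12 (without floxed control array 3) to 0.20. Without floxed control arrays 1 and 2, the differences of Edem3 (−0.019), Hspa5 (−0.17), Syvn1 (0.065) and Atf4 (0.13) turned as well, and the cause was not tested. Derl3, with a mean below the median gene, is the member most limited by low signal.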
